A study of Homo sapiens with 6 samples.

Results

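Cynaroside, also called luteolin 7-O-glucoside, is the glucoside of the plant flavone luteolin. Its effect on RNA was measured in LX-2, an established line of human hepatic stellate cells, by comparing 2 libraries of cells treated with cynaroside for 24 h with 2 libraries of cells treated for 24 h with the solvent DMSO. The libraries were taken by their titles, and they are 4 of the 6 total-RNA libraries of the series. The other 2 came from LX-2 cells given for 24 h the treatment that the labels call FEBJ. They are used here to estimate the spread between libraries and for 1 direct comparison. All groups are labelled as genotype WT, and nothing else separates them in the labels. The dose is not given in the sources used here, and a line is 1 source of cells. Whether paired libraries started from independent cultures is not in the labels. The p-values therefore measure only the spread between these libraries, which may be technical. That spread was estimated with values shared between genes, so a p-value does not rest on the gene's own libraries alone.

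Stellate cells store vitamin A in the healthy liver. After injury they become myofibroblast-like cells that carry alpha smooth muscle actin fibres, secrete collagens and other matrix proteins, and cross-link that matrix with lysyl oxidases. LX-2 cells grown on plastic already show much of this activated state. Flavones such as luteolin are known from other systems as antioxidants, as kinase inhibitors and as ligands of the aryl hydrocarbon receptor. A glucoside is usually taken up poorly until its sugar is removed.

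The deposited tables list counts per gene row, and most reads are in none of those rows. Gene rows held 5.48 to 6.01% of the counts of the 4 libraries, which is 1599000 and 4709317 counts in the cynaroside libraries and 2537896 and 3720981 in the DMSO libraries. Within the gene rows, non-coding rows that lie across a protein-coding gene on the other strand held 42.6 to 44.2% of the counts. The own rows of the genes so crossed held 1.5 to 2.25%, and protein-coding rows as a whole, many of which have exons of another gene opposite, 41.4 to 43.5%. Genes were read here mainly from non-coding rows whose exons overlap, by at least 50 bp, exons of a single protein-coding gene on the opposite strand. Each such row also had to hold at least as many counts over the 6 libraries as the gene's own row. Rows that met both conditions numbered 1829 and stood for 1702 genes, of which 1458 had enough counts to be tested. The low share of the own rows is therefore set in part by this choice. Without the condition on counts 1739 genes were tested. A level below is the gene's opposite-row count scaled to counts per 1000000 (CPM) of this reading's counts, whose totals were 706396 and 2065919 counts with cynaroside and 1086563 and 1585545 with DMSO. It depends on how much of the gene the row covers, so levels are compared between libraries and not between genes.

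Markers of the labelled cell type were present. VIM, THY1, SPARC, NGFR and ACTA2 were all measured among the stellate cell markers, whereas the stellate markers DES and LRAT were at 0 counts in all 4 libraries. Of 13 hepatocyte markers, 10 including ALB, APOA1 and TTR were at 0 in all 4 libraries, and the 13 summed to 0 to 8 counts per library. Of 12 leukocyte markers, 9 including PTPRC were at 0, and the sum was 8 to 17 counts. Of 12 endothelial markers, 6 including PECAM1, CDH5 and VWF were at 0, and the sum was 255 to 722 counts. Of 11 epithelial markers, 3 (KRT19, EPCAM and CDH1) were at 0. Summed own rows were at 1826 and 1826 CPM of the gene rows with DMSO and 658 and 629 with cynaroside for the epithelial markers, at 149 and 150.5 CPM of the gene rows with DMSO and 159 and 153 with cynaroside for the endothelial markers and at 898 and 898 CPM of the gene rows with DMSO and 169 and 135 with cynaroside for the stellate markers. The epithelial and stellate sums were thus lower with cynaroside and the endothelial sum was not. Own rows were lower with cynaroside as a class, with a median log2 fold change of -0.84 for those of the genes read. VIM's own row had 1075 and 1455 counts with DMSO and 155 and 319 with cynaroside. Its log2 fold change in the opposite-strand reading was only -0.34. The part of this class shift in the sums was not tested. KRT7, the epithelial marker read from an opposite row, was at 162 and 149.9 CPM of the opposite-strand reading with DMSO and 90.2 and 54.5 with cynaroside (log2 fold change -1.24 ± 0.17, adjusted p = 3.81e-12). The part of these rows in the results was not tested. Fewer cells of a kind and less RNA per cell cannot be told apart in such bulk libraries.

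The sequences illustrate which strands the reading sets against each other. Each pair below gives 30 bases of a coding sequence from GENCODE release 29 and the stretch of the non-coding row's transcript that lies across it, both 5′ to 3′, with the middle 10 bases in capitals. VIM, TPM1, TUBB and ACTA2 are shown because the results on the cytoskeleton turn on them. GAPDH, the other of the 5 genes, is a glycolytic gene with a high level in this reading. Each row stretch is the reverse complement of its partner, as the choice of rows required. Taking the counts of a row as the level of the gene is an assumption that was not tested. The release is built on GRCh38 while the counts were made on hg19, so no position of a row is given.
VIM mRNA: tccaagcctgACCTCACGGCtgccctgcgt
AL133415.1 opposite VIM: acgcagggcaGCCGTGAGGTcaggcttgga
TPM1 mRNA: cctgcaggagCAGGCGGACGccgctgagga
TPM1-AS opposite TPM1: tcctcagcggCGTCCGCCTGctcctgcagg
GAPDH mRNA: ctgggctacaCTGAGCACCAggtggtctcc
AC006064.4 opposite GAPDH: ggagaccaccTGGTGCTCAGtgtagcccag
TUBB mRNA: accgtggtcgAGCCCTACAAtgccaccctc
AL662797.1 opposite TUBB: gagggtggcaTTGTAGGGCTcgaccacggt
ACTA2 mRNA: ggaaatgaacGTTTCCGCTGcccagagacc
ACTA2-AS1 opposite ACTA2: ggtctctgggCAGCGGAAACgttcatttcc
A read counted in the row AC006064.4 therefore overlaps GAPDH exons on the strand opposite to the one annotated for GAPDH. Rows differ in how much of them lies opposite the gene: all of the exon length for GAPDH, 86.9% for TPM1, 54.6% for VIM and only 16.2% for ACTA2. Counts from the rest of such a row cannot be assigned to the gene, so the share is given, as "row 16.2% opposite" for ACTA2, wherever a gene named below was read with under 25%. The share of genes that rose was higher where more of the row lay opposite: 24.8% of 282 genes with at least 90%, 24.2% of 532 with at least 50%, 17.9% of 926 with under 50% and 14.7% of 204 with under 10%. The share that fell was between 20.6 and 23.7% in all 4.

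After 24 h of cynaroside, 295 of the 1458 genes tested (20.2%) rose and 325 (22.3%) fell, as tested with edgeR's quasi-likelihood test at an adjusted p of 0.05. The changes were moderate. The median size among the called genes was a log2 fold change of 0.58 for rises and -0.68 for falls, 283 of the 620 called genes changed by less than 1.5-fold, and 66 rises and 95 falls passed 2-fold (4.53% and 6.52% of genes tested). The values of the groups did not overlap for 617 of the 620 called genes, and for 70.2% of all genes tested, called or not. For every gene written below as risen or fallen, both cynaroside libraries lay on the same side of both DMSO libraries. Risen and fallen refer to the rows read. For 14 risen genes named below the own row fell, and they are listed together with the own rows. The plot of fold change against level shows small shifts among the genes of highest level in this reading and the larger ones among genes of lower level.

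**Figure D1:**
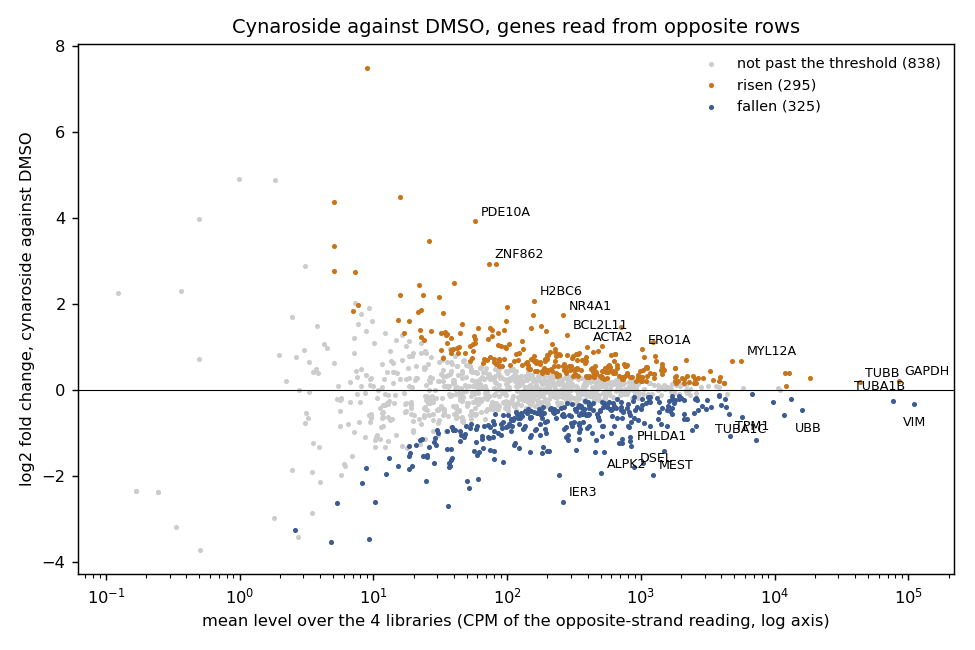
Each point is 1 of the 1458 genes tested. The horizontal log axis gives its mean level over the 2 DMSO and 2 cynaroside libraries in CPM of the opposite-strand reading, and the vertical axis its log2 fold change, cynaroside against DMSO. Orange points are the 295 risen genes, blue points the 325 fallen genes and grey points the rest. TPM1, MEST and IER3 lie low among the labelled genes, while VIM, TUBA1B, TUBB and GAPDH at the right lie near 0.

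Directions are relative to the typical gene of this reading, whose median log2 fold change was -0.01. Scaling by all deposited rows instead raises the fold changes by a median of 0.46, to a median of 0.44. On that scale 740 genes rose and 107 fell. All 295 rises stay above 0 there and 238 of the 325 falls stay below 0. The median of a gene list given below is negative for 22 of 35 lists on the scale used here and for 4 on the other: the immediate early, NF-kB, interferon, and Wnt, Notch and Hedgehog lists. The counts of list members are to be read against the 20.2% of all genes that rose and the 22.3% that fell. They and the medians describe the lists, and no list was tested against other genes.

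**Figure D2:**
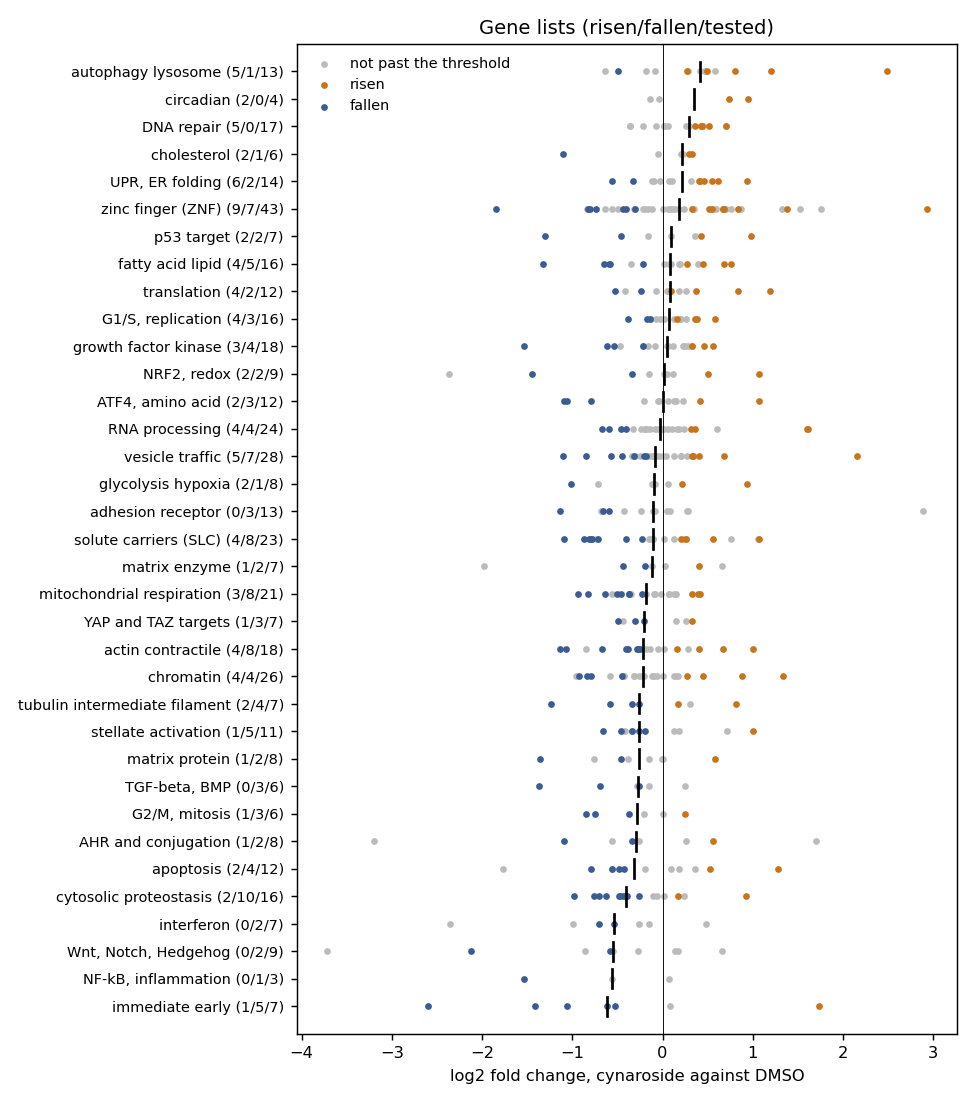
Each point is a measured member of a gene list, placed by its log2 fold change, cynaroside against DMSO. Orange points rose, blue points fell, grey points did not pass the threshold, and the black bar is the list's median. Numbers after each name are members that rose, that fell and that were tested. The autophagy and lysosome list is at the top with a median of 0.42 and the immediate early list at the bottom with -0.62. Under scaling by all deposited rows the points lie about 0.46 further right, and the medians below 0 are then those of the immediate early, NF-kB, interferon, and Wnt, Notch and Hedgehog lists.

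Those stellate cell and matrix genes that have an opposite row moved in both directions and mostly by little. They are few: 11 of 44 stellate genes and 8 of 70 matrix genes listed were tested. COL1A1, COL3A1 and FN1 are not among them and are given further below from their own rows. Of 47 own rows of the matrix list, 3 rose and 28 fell (median log2 fold change -1.65). The median of protein-coding rows with no exon opposite was -1.40. Of the stellate cell and activation genes, 1 rose and 5 fell of 11 tested (median log2 fold change -0.26). VIM, the intermediate filament vimentin, with one of the highest levels in this reading, was at 123375 and 122330.0 CPM with DMSO and 97269 and 96950.3 CPM with cynaroside (log2 fold change -0.34 ± 0.01, adjusted p = 7.29e-121). ACTA2, alpha smooth muscle actin and the classic marker of activated stellate cells, went the other way, with 273 and 261 CPM with DMSO and 474 and 584 CPM with cynaroside (log2 fold change 1.01 ± 0.13, adjusted p = 4.15e-14, row 16.2% opposite). CDH2, the adhesion molecule N-cadherin, fell from 1104 and 1063 CPM to 675 and 696 CPM (log2 fold change -0.66 ± 0.09, adjusted p = 4.53e-13). So the row read for the activation marker ACTA2 was about 2-fold higher after cynaroside, while those read for the mesenchymal markers VIM and CDH2 were lower. Most of the ACTA2 row does not lie opposite the gene. ACTA2's own row had 9 and 28 counts with DMSO and 0 and 7 with cynaroside. It did not pass the test (log2 fold change -2.13 in the fit of all deposited rows, adjusted p = 0.132). SPARC, a matrix protein that binds collagen, fell as well, from 568 and 581 CPM to 413 and 421 CPM (log2 fold change -0.46 ± 0.12, adjusted p = 8.58e-04, row 17.4% opposite). The fall of VIM is smaller than the scaling shift given above and changes sign under that scaling. CDH2 (log2 fold change -0.20, adjusted p = 0.0678) and SPARC (log2 fold change -0.00, adjusted p = 0.989) no longer passed the threshold when scaled by all deposited rows.

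Other members of that panel did not pass the test on the scale used here. THY1, a surface glycoprotein of fibroblasts, was at 847 and 851 CPM with DMSO and 946 and 974 CPM with cynaroside (log2 fold change 0.18 ± 0.08, adjusted p = 0.0719). NGFR, a neurotrophin receptor of stellate cells, was at 77.2 and 87.8 CPM with DMSO and 80.1 and 58.4 CPM with cynaroside (log2 fold change -0.34 ± 0.20, adjusted p = 0.147, row 19.5% opposite). THY1 passed the threshold with only the 4 libraries fitted (adjusted p = 0.0336) and with rows of at least 200 bp overlap (adjusted p = 0.0418). On the scale of all deposited rows the threshold was passed by THY1 (log2 fold change 0.64, adjusted p = 2.41e-09) as a rise. Among 8 collagens and matrix glycoproteins measured, 1 rose and 2 fell (median -0.27). THBS1, thrombospondin 1, which activates latent TGF-beta, was at 178 and 176 CPM with DMSO and 68.4 and 69.8 CPM with cynaroside (log2 fold change -1.35 ± 0.23, adjusted p = 4.04e-08), well below the control level in both libraries. COL4A2, a basement membrane collagen chain, was at 1343 and 1346 CPM with DMSO and 1410.3 and 1295 CPM with cynaroside (log2 fold change 0.00 ± 0.07, adjusted p = 0.987, row 15% opposite). The member of that list that rose was THBS3, a relative of THBS1, at 133 and 97.9 CPM with DMSO and 172 and 169 CPM with cynaroside (log2 fold change 0.58 ± 0.18, adjusted p = 0.00360). THBS4, another thrombospondin, outside that list but among the 12 largest rises, was at 11.9 and 5.40 CPM with DMSO and 39.3 and 37.1 CPM with cynaroside (log2 fold change 2.20 ± 0.49, adjusted p = 1.04e-05, row 4.08% opposite). LTBP1, which tethers latent TGF-beta to matrix, was at 42.6 and 35.8 CPM with DMSO and 36.4 and 34.2 CPM with cynaroside (log2 fold change -0.15 ± 0.42, adjusted p = 0.800, row 13% opposite). THBS3 missed the threshold without DMSO library 2 (adjusted p = 0.197). THBS4 had a log2 fold change of 2.79 without DMSO library 1. With all deposited rows as the scale COL4A2 (log2 fold change 0.46, adjusted p = 1.2e-06) passed the threshold as a rise.

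Matrix enzymes with an opposite row changed little on the scale used here: 1 rose and 2 fell of 7 tested (median log2 fold change -0.12). The metalloproteinase inhibitor TIMP2 was at 5651 and 5801 CPM with DMSO and 6196 and 5551 CPM with cynaroside (log2 fold change 0.03 ± 0.04, adjusted p = 0.560). LOXL2, one of the collagen cross-linking lysyl oxidases, was at 2833 and 2668 CPM with DMSO and 2389.9 and 2402 CPM with cynaroside (log2 fold change -0.20 ± 0.06, adjusted p = 0.00162, row 3.71% opposite), a fall of small size. P4HB, the disulfide isomerase that is also a subunit of collagen prolyl hydroxylase, rose from 11213 and 10988 CPM to 14805 and 14515 CPM (log2 fold change 0.40 ± 0.03, adjusted p = 4.22e-41). LOXL2 missed the threshold without DMSO library 1 (adjusted p = 0.0739). The fall of LOXL2 is smaller than the scaling shift given above and changes sign under that scaling. TIMP2 (log2 fold change 0.48, adjusted p = 1.09e-11) passed the threshold as a rise when scaled by all deposited rows.

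**Figure D3:**
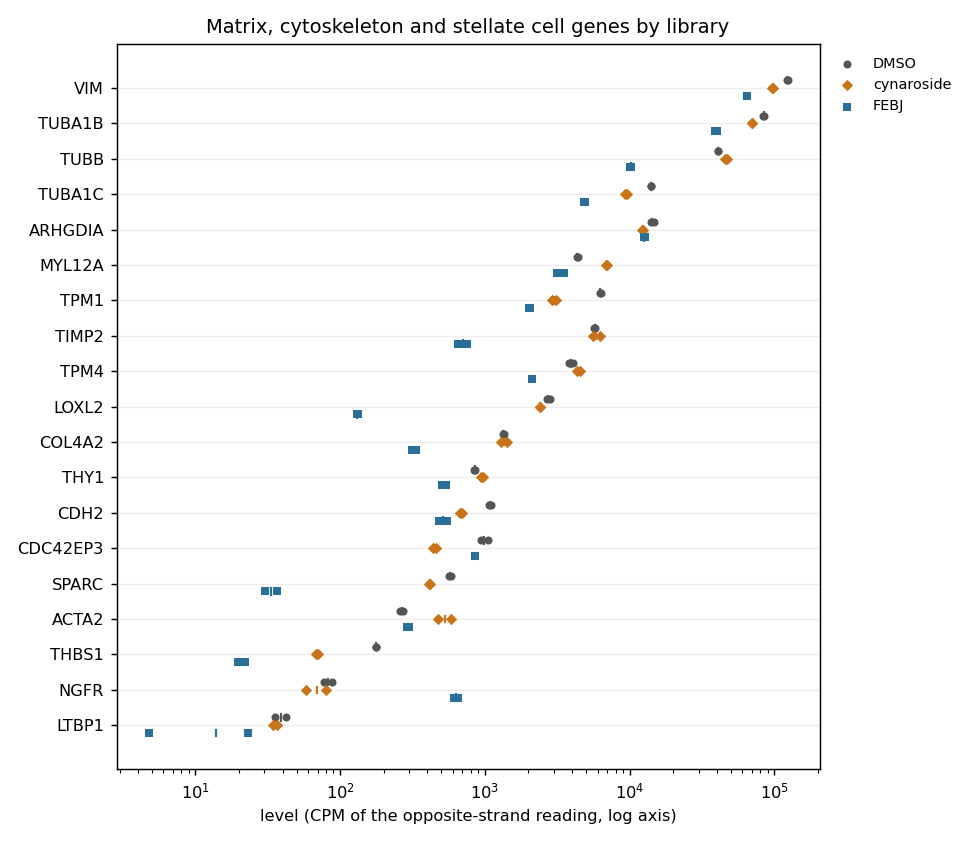
Each row is a gene and each symbol 1 library: grey circles DMSO, orange diamonds cynaroside, blue squares FEBJ, with a short bar at the mean of the 2. The horizontal log axis is the level in CPM of the opposite-strand reading. TPM1, CDC42EP3 and THBS1 lie lower with cynaroside than with DMSO and MYL12A and ACTA2 higher, while TIMP2 and COL4A2 lie together with DMSO and apart from FEBJ. The direction of VIM, TUBA1B, LOXL2 and ARHGDIA changes under scaling by all deposited rows.

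Actin genes fell more often than they rose. Of the actin, focal adhesion and contractile genes, 4 rose and 8 fell of 18 tested (median log2 fold change -0.21), so 44.4% of them fell. TPM1, a tropomyosin that stabilises actin filaments, was at 6193 and 6369.9 CPM with DMSO and 3119 and 2901 CPM with cynaroside (log2 fold change -1.07 ± 0.04, adjusted p = 1.05e-121). CDC42EP3, an effector of the small GTPase CDC42, fell from 1047 and 933 CPM to 463 and 439 CPM (log2 fold change -1.14 ± 0.09, adjusted p = 1.92e-34). The fall of TPM1 was 2.09-fold. ARHGDIA, which holds small GTPases in an inactive state, was at 14703 and 13970.5 CPM with DMSO and 12377 and 12218 CPM with cynaroside (log2 fold change -0.22 ± 0.03, adjusted p = 2.11e-14), a change of small size in a gene with a high level here. In contrast, MYL12A, a regulatory light chain of non-muscle myosin, rose from 4305 and 4369 CPM to 6906 and 6934 CPM (log2 fold change 0.67 ± 0.04, adjusted p = 6.03e-62, row 16.5% opposite). TPM4, another tropomyosin, was at 4060.0 and 3809 CPM with DMSO and 4512 and 4302 CPM with cynaroside (log2 fold change 0.16 ± 0.04, adjusted p = 9.73e-04). The tropomyosins TPM1 and TPM4 thus moved in opposite directions within one list. TPM4 missed the threshold without DMSO library 2 (adjusted p = 0.105). The fall of ARHGDIA is smaller than the scaling shift given above and changes sign under that scaling.

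The tubulin and intermediate filament genes split in the same manner: 2 rose and 4 fell of 7 tested (median log2 fold change -0.26). TUBA1C, an alpha tubulin, fell from 14074 and 14132 CPM to 9584 and 9292 CPM (log2 fold change -0.58 ± 0.03, adjusted p = 7.81e-75). TUBA1B, an alpha tubulin with a high level here, was at 84921 and 83810.4 CPM with DMSO and 70378 and 70414 CPM with cynaroside (log2 fold change -0.26 ± 0.02, adjusted p = 2.46e-57). TUBB, a beta tubulin, rose a little, from 40962 and 40799 CPM to 46774 and 45606 CPM (log2 fold change 0.18 ± 0.02, adjusted p = 5.59e-17). Alpha and beta tubulin form the subunit of microtubules, and the alpha genes were lower where the beta gene was not. Tubulin genes have near-identical copies, and how the counting split reads among them is not given in the sources used here. SYNM, the intermediate filament protein synemin, was at 419.9 and 438 CPM with DMSO and 811 and 719 CPM with cynaroside (log2 fold change 0.82 ± 0.10, adjusted p = 2.38e-15). The fall of TUBA1B is smaller than the scaling shift given above and changes sign under that scaling.

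Adhesion receptors fell at about the rate of all genes. Of 13 integrins, cadherins and other adhesion receptors tested, 0 rose and 3 fell (23.1%, near the 22.3% of all genes). NRP1, a co-receptor for semaphorins and VEGF, was at 470.4 and 475 CPM with DMSO and 226 and 208 CPM with cynaroside (log2 fold change -1.14 ± 0.15, adjusted p = 1.1e-13). CD82, a tetraspanin, was at 329 and 293 CPM with DMSO and 191 and 214 CPM with cynaroside (log2 fold change -0.59 ± 0.14, adjusted p = 1.58e-04). ENG, endoglin, a co-receptor for TGF-beta and BMP ligands, fell from 1151 and 1221 CPM to 749.6 and 722 CPM (log2 fold change -0.69 ± 0.09, adjusted p = 2.78e-14, row 13.9% opposite). In the TGF-beta and BMP list 0 rose and 3 fell of 6 tested (median log2 fold change -0.27). NEDD9, a scaffold of focal adhesions induced by TGF-beta, was at 63.4 and 48.6 CPM with DMSO and 16.0 and 24.3 CPM with cynaroside (log2 fold change -1.37 ± 0.38, adjusted p = 8.77e-04, row 7.53% opposite). No gene of the adhesion or TGF-beta lists passed edgeR's test as a rise, DESeq2 called none either, and at an unadjusted p of 0.05 there was 1 rise in the adhesion list and 0 in the TGF-beta list. On the scale of all deposited rows the threshold was no longer passed by CD82 (log2 fold change -0.13, adjusted p = 0.454).

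In the list of YAP and TAZ targets and Hippo genes, 1 rose and 3 fell of 7 tested (median log2 fold change -0.21). YAP1, the co-activator itself, was at 2067 and 2079.9 CPM with DMSO and 1821 and 1770.3 CPM with cynaroside (log2 fold change -0.21 ± 0.06, adjusted p = 0.00177). AXL, a receptor tyrosine kinase for GAS6, rose from 2134 and 2207 CPM to 2719 and 2737 CPM (log2 fold change 0.33 ± 0.06, adjusted p = 5.32e-08, row 23.4% opposite). CRIM1, which binds BMPs at the cell surface, was at 1209 and 1231 CPM with DMSO and 958 and 1014 CPM with cynaroside (log2 fold change -0.30 ± 0.08, adjusted p = 8.83e-04). Of the growth factor, MAPK and PI3K genes, 3 rose and 4 fell of 18 tested (median log2 fold change 0.05). PDPK1, the kinase that phosphorylates AKT, was at 922 and 838 CPM with DMSO and 1201 and 1221 CPM with cynaroside (log2 fold change 0.47 ± 0.08, adjusted p = 2.53e-08). IGFBP7, a secreted binding protein of insulin-like growth factors, rose from 648 and 592 CPM to 863 and 951 CPM (log2 fold change 0.56 ± 0.09, adjusted p = 2.13e-09, row 5.40% opposite). YES1, a kinase of the SRC family, fell from 431 and 414 CPM to 271 and 306 CPM (log2 fold change -0.53 ± 0.14, adjusted p = 3.77e-04, row 8.98% opposite). The shifts of the genes named in this paragraph were all under 1.5-fold. In the growth factor list 1 fall, that of LIF given below, passed 2-fold. YAP1 missed the threshold without cynaroside library 2 (adjusted p = 0.0543). The falls of YAP1 and CRIM1 are smaller than the scaling shift given above and change sign under that scaling. With all deposited rows as the scale YES1 (log2 fold change -0.08, adjusted p = 0.673) no longer passed the threshold.

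Immediate early genes, which respond within minutes to growth factors and stress, held the list with the lowest median: 1 rose and 5 fell of 7 tested (median log2 fold change -0.62). IER3, a stress-responsive survival gene, was at 429 and 475 CPM with DMSO and 71.3 and 75.8 CPM with cynaroside (log2 fold change -2.61 ± 0.16, adjusted p = 4.63e-62), a 6.09-fold fall. BTG1, an antiproliferative gene, fell from 512 and 445 CPM to 189 and 174 CPM (log2 fold change -1.41 ± 0.12, adjusted p = 3.87e-28, row 4.28% opposite). CEBPB, a transcription factor of inflammation and the stress response, was at 729.8 and 664 CPM with DMSO and 309 and 348 CPM with cynaroside (log2 fold change -1.06 ± 0.10, adjusted p = 3.56e-23, row 8.72% opposite). NR4A1, an orphan nuclear receptor and the member that rose, was at 116 and 125 CPM with DMSO and 422 and 388 CPM with cynaroside (log2 fold change 1.74 ± 0.15, adjusted p = 6.49e-28). IER3 and NR4A1, both early genes, therefore lay more than 2-fold apart from control in opposite directions.

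Few inflammation genes were measured. Of 3 genes of the NF-kB and cytokine list, 1 fell: LIF, a cytokine of the interleukin 6 family, at 36.6 and 28.4 CPM with DMSO and 26.2 and 2.97 CPM with cynaroside (log2 fold change -1.54 ± 0.58, adjusted p = 0.0240, row 22% opposite). In the interferon list 0 rose and 2 fell of 7 tested (median log2 fold change -0.54). IRF1, a transcription factor induced by interferon, was at 223 and 227 CPM with DMSO and 138 and 164 CPM with cynaroside (log2 fold change -0.54 ± 0.13, adjusted p = 1.63e-04, row 17.6% opposite). XAF1, an interferon-induced antagonist of XIAP, was at 128 and 146 CPM with DMSO and 83.0 and 84.7 CPM with cynaroside (log2 fold change -0.71 ± 0.21, adjusted p = 0.00199). Neither list held a rise, by edgeR, by DESeq2 or at an unadjusted p of 0.05. LIF missed the threshold in DESeq2 (adjusted p = 0.293), without cynaroside library 2 (adjusted p = 0.774), without DMSO library 1 (adjusted p = 0.256) and without DMSO library 2 (adjusted p = 0.118). LIF had a log2 fold change of -3.38 without cynaroside library 1 and -0.30 without cynaroside library 2. XAF1 missed the threshold without DMSO library 2 (adjusted p = 0.0565). LIF (log2 fold change -1.09, adjusted p = 0.126), IRF1 (log2 fold change -0.07, adjusted p = 0.674) and XAF1 (log2 fold change -0.25, adjusted p = 0.315) no longer passed the threshold when scaled by all deposited rows.

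Protein folding genes of the endoplasmic reticulum (ER) rose more often than they fell, and those of the cytosol fell more often than they rose. Of the unfolded protein response and ER folding genes, 6 rose and 2 fell of 14 tested (median log2 fold change 0.21). ERO1A, the oxidase that reloads disulfide isomerases, rose from 693 and 708 CPM to 1298 and 1386 CPM (log2 fold change 0.94 ± 0.09, adjusted p = 1.66e-26). HYOU1, an ER chaperone of the HSP70 group, was at 1269.5 and 1222 CPM with DMSO and 1755 and 1667 CPM with cynaroside (log2 fold change 0.46 ± 0.07, adjusted p = 8.17e-11). P4HB, given above as a disulfide isomerase, is the partner of ERO1A and rose too. In the fit of all deposited rows the own rows of P4HB (log2 fold change -1.73, adjusted p = 7.1e-08) and HYOU1 (log2 fold change -1.61, adjusted p = 0.00536) fell. ERO1A's own row did not pass the test (log2 fold change -0.80, adjusted p = 0.384). UFD1, which helps to extract proteins from the ER for degradation, was at 945 and 854 CPM with DMSO and 645 and 760.1 CPM with cynaroside (log2 fold change -0.33 ± 0.08, adjusted p = 1.6e-04, row 24.8% opposite). The fall of UFD1 is smaller than the scaling shift given above and changes sign under that scaling. The own row of UFD1 ran the other way, with 44 and 81 counts with DMSO and 90 and 108 with cynaroside (log2 fold change 1.24 in the fit of all deposited rows, adjusted p = 0.00331). In the cytosolic chaperone, ubiquitin and proteasome list, 2 rose and 10 fell of 16 tested (median log2 fold change -0.40), so 62.5% of the members fell, and under scaling by all deposited rows that median is 0.06. CCT5, a subunit of the TRiC chaperonin that folds actin and tubulin, fell from 6933 and 7038 CPM to 4493 and 4539.8 CPM (log2 fold change -0.63 ± 0.04, adjusted p = 1.65e-58). Another TRiC subunit, CCT4, was at 1351 and 1340.0 CPM with DMSO and 716 and 846 CPM with cynaroside (log2 fold change -0.76 ± 0.07, adjusted p = 2.44e-24). UBB, a polyubiquitin gene with near-identical ubiquitin repeats elsewhere in the genome, was at 18440.5 and 18676 CPM with DMSO and 13398 and 13408 CPM with cynaroside (log2 fold change -0.47 ± 0.02, adjusted p = 6.38e-82). On the scale of all deposited rows the threshold was no longer passed by UBB (log2 fold change -0.02, adjusted p = 0.782).

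The ATF4 and amino acid list was split: 2 rose and 3 fell of 12 tested (median log2 fold change 0.01). SLC7A11, the cystine transporter that feeds glutathione synthesis and a target of both ATF4 and NRF2, rose from 133 and 146 CPM to 287 and 299.6 CPM (log2 fold change 1.07 ± 0.18, adjusted p = 2.36e-08, row 14% opposite). SLC7A5, a transporter of large neutral amino acids, went down, from 200.03 and 206 CPM to 78.6 and 105 CPM (log2 fold change -1.09 ± 0.20, adjusted p = 2.01e-07). SLC1A5, a glutamine transporter, was at 1772 and 1794 CPM with DMSO and 1039 and 1021 CPM with cynaroside (log2 fold change -0.79 ± 0.07, adjusted p = 6e-30). Cystine uptake and neutral amino acid uptake genes thus moved apart. The NRF2 and redox list showed no common direction either: 2 rose and 2 fell of 9 tested (median log2 fold change 0.01). NQO1, a quinone reductase and a standard NRF2 target, was at 395 and 525 CPM with DMSO and 373 and 360.5 CPM with cynaroside (log2 fold change -0.34 ± 0.13, adjusted p = 0.0229). CBR3, a carbonyl reductase, fell from 632 and 701 CPM to 246 and 246 CPM (log2 fold change -1.44 ± 0.10, adjusted p = 1.42e-46, row 5.83% opposite). MAFG, a small MAF partner of NRF2, was at 138 and 174 CPM with DMSO and 231 and 218 CPM with cynaroside (log2 fold change 0.51 ± 0.16, adjusted p = 0.00526). NQO1 missed the threshold in DESeq2 (adjusted p = 0.172), without cynaroside library 1 (adjusted p = 0.0606), without cynaroside library 2 (adjusted p = 0.143) and without DMSO library 2 (adjusted p = 0.652). MAFG missed the threshold without DMSO library 1 (adjusted p = 0.141). The fall of NQO1 is smaller than the scaling shift given above and changes sign under that scaling.

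Targets of the aryl hydrocarbon receptor, conjugating enzymes and efflux pumps gave 1 rise and 2 falls among 8 tested, and the falls were SLC7A5 and NQO1 of the preceding lists. Promoters were searched for 6 motifs on both strands, among them the core letters TNGCGTG of the xenobiotic response element. RefSeq promoters (GRCh38.p14, 250 bases before to 50 after the start) were matched for 1183 of the 1458 genes. The letters were in 24 of 246 promoters of risen genes (9.76%), in 12 of 272 of fallen genes (4.41%) and in 5.71% of those of genes that did not pass the test, against 5.51% of all 27305 promoters. The antioxidant response element (TGACNNNGC) was in 13.4% of risen, 14.7% of fallen and 13.6% of all promoters. The sterol regulatory element (TCACNCCAC) was in 2.03% of risen, 0.735% of fallen and 1.15% of all promoters. The C/EBP-ATF element (TGATGNAA) was in 0.813% of risen, 1.84% of fallen and 3.67% of all promoters. The CArG box was in 2.03% of risen, 1.10% of fallen and 1.29% of all promoters. The endoplasmic reticulum stress element was in none of the risen or fallen genes' promoters and in 0.0806% of all. A match is a description of the letters, no test of the shares was made, and the xenobiotic response element was chosen for display after the shares were seen. CTSA, the lysosomal protective protein cathepsin A, and TPT1, a translationally controlled growth protein, are shown as risen genes that hold the letters and whose rows lie mostly (75.6%, CTSA) or wholly (TPT1) opposite them. The fallen genes CCT4, NQO1 and PDHB hold the letters too. The 250 bases before the start are given with the match in capitals.
CTSA promoter, GRCh38.p14 chr20:45891085-45891334, plus strand: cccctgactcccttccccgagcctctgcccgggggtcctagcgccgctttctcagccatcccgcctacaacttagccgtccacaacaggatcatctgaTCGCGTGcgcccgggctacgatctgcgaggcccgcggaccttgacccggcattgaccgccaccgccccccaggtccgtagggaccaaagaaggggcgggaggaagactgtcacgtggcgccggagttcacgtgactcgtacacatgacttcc
TPT1 promoter, GRCh38.p14 chr13:45341184-45341433, minus strand: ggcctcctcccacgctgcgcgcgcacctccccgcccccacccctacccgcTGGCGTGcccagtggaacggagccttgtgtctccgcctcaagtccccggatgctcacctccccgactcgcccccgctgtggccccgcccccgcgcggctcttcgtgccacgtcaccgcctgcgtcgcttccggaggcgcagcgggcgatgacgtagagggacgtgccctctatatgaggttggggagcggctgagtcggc
CTSA rose from 1776 and 1909.8 CPM to 2135 and 2314 CPM (log2 fold change 0.28 ± 0.06, adjusted p = 6.36e-06). TPT1 was at 16714 and 16628 CPM with DMSO and 20617 and 19918 CPM with cynaroside (log2 fold change 0.28 ± 0.03, adjusted p = 7.39e-27). Both changes were of small size, near 1.22-fold. Neither passed edgeR's test against a fold of 1.2 (adjusted p = 0.378 for CTSA and 0.221 for TPT1). Of all genes named as risen or fallen, 21 missed that test, CTSA and TPT1 among them. The rest were ARHGDIA, AXL, CRIM1, GAPDH, LOXL2, MAFG, MCM2, MDM2, MRPS9 and NQO1, and also RECQL4, RPL10, SPARC, SREBF2, TPM4, TUBA1B, TUBB, UFD1 and YAP1.

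Sterol genes were few. Of 6 cholesterol genes tested, 2 rose and 1 fell. HMGCS1, the synthase that makes HMG-CoA and a target of SREBP2, fell from 1134 and 1128 CPM to 562 and 502 CPM (log2 fold change -1.10 ± 0.09, adjusted p = 2.09e-32). SREBF2, which encodes SREBP2, was at 474 and 407 CPM with DMSO and 557 and 543 CPM with cynaroside (log2 fold change 0.32 ± 0.11, adjusted p = 0.0108, row 9.37% opposite). HMGCS1 was lower where SREBF2 was higher. SREBF2 missed the threshold in DESeq2 (adjusted p = 0.0579) and without DMSO library 2 (adjusted p = 0.243). Of the fatty acid, triglyceride and phospholipid genes, 4 rose and 5 fell of 16 tested (median log2 fold change 0.08). CPT2, an enzyme of fatty acid entry into mitochondrial oxidation, rose from 304 and 282 CPM to 473 and 509.5 CPM (log2 fold change 0.76 ± 0.11, adjusted p = 1.18e-10). CERS6, a ceramide synthase, was at 970.4 and 1012 CPM with DMSO and 1609.8 and 1574 CPM with cynaroside (log2 fold change 0.68 ± 0.07, adjusted p = 1.04e-21). PLIN3, a coat protein of lipid droplets, fell from 817 and 940.4 CPM to 579 and 551 CPM (log2 fold change -0.65 ± 0.09, adjusted p = 1.29e-10). CHKA, the choline kinase of phosphatidylcholine synthesis, was at 398 and 423 CPM with DMSO and 322 and 249 CPM with cynaroside (log2 fold change -0.58 ± 0.10, adjusted p = 7.02e-08). With all deposited rows as the scale PLIN3 (log2 fold change -0.19, adjusted p = 0.111) and CHKA (log2 fold change -0.11, adjusted p = 0.384) no longer passed the threshold. CHKA's own row rose, with 172 and 309 counts with DMSO and 299 and 893 with cynaroside (log2 fold change 1.66 in the fit of all deposited rows, adjusted p = 3.9e-10).

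Energy metabolism genes fell more often than they rose in the mitochondria. Of the nuclear genes of respiration, the TCA cycle and mitochondrial translation, 3 rose and 8 fell of 21 tested (median log2 fold change -0.19). PINK1, the kinase that marks damaged mitochondria, was at 3332 and 3288 CPM with DMSO and 1965 and 1784 CPM with cynaroside (log2 fold change -0.83 ± 0.05, adjusted p = 5.52e-57). PDHB, a subunit of pyruvate dehydrogenase, fell from 707 and 691 CPM to 509 and 504 CPM (log2 fold change -0.46 ± 0.10, adjusted p = 1.01e-05). MRPS9, a mitochondrial ribosomal protein, rose from 518 and 552 CPM to 735 and 682 CPM (log2 fold change 0.39 ± 0.09, adjusted p = 2.84e-05). The glycolysis and hypoxia list held 2 rises and 1 fall among 8 tested. GAPDH, the glycolytic dehydrogenase often used as a reference gene, was at 79053 and 78273 CPM with DMSO and 91136 and 91596 CPM with cynaroside (log2 fold change 0.22 ± 0.01, adjusted p = 2.1e-47). HIF1A, the oxygen-regulated transcription factor, was at 724 and 887 CPM with DMSO and 393 and 406 CPM with cynaroside (log2 fold change -1.01 ± 0.10, adjusted p = 2.02e-21, row 17.9% opposite). GAPDH was 1.16-fold its DMSO level and HIF1A 2.02-fold lower. PDHB (log2 fold change -0.01, adjusted p = 0.970) no longer passed the threshold when scaled by all deposited rows. The own row of PINK1 ran the other way, with 246 and 355 counts with DMSO and 325 and 1243 with cynaroside (log2 fold change 1.65 in the fit of all deposited rows, adjusted p = 6.16e-10). HIF1A's own row rose, with 167 and 324 counts with DMSO and 223 and 624 with cynaroside (log2 fold change 1.16 in the fit of all deposited rows, adjusted p = 3.62e-06).

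Autophagy and lysosome genes had the highest median of the lists: 5 rose and 1 fell of 13 tested (median log2 fold change 0.42). SNAP29, a SNARE protein that fuses autophagosomes with lysosomes, rose from 221 and 194 CPM to 358 and 359.5 CPM (log2 fold change 0.80 ± 0.14, adjusted p = 5.71e-08). PLEKHM1, an adaptor for the same fusion step, was at 13.9 and 10.1 CPM with DMSO and 75.7 and 59.9 CPM with cynaroside (log2 fold change 2.49 ± 0.40, adjusted p = 3.48e-10, row 19.6% opposite). ATG101, part of the kinase complex that starts autophagy, fell from 893 and 845 CPM to 569 and 651 CPM (log2 fold change -0.49 ± 0.08, adjusted p = 5.8e-09). The rows read for the 2 fusion genes were higher where that of the initiation gene was lower. Own rows of both fusion genes ran the other way. SNAP29's had 24 and 27 counts with DMSO and 0 and 8 with cynaroside (log2 fold change -2.48 in the fit of all deposited rows, adjusted p = 0.0308). PLEKHM1's had 9 and 36 with DMSO and 0 and 2 with cynaroside (log2 fold change -3.97, adjusted p = 0.0116). On the scale of all deposited rows the threshold was no longer passed by ATG101 (log2 fold change -0.03, adjusted p = 0.801). Of the ribosome and translation genes, 4 rose and 2 fell of 12 tested (median log2 fold change 0.08). EIF4E2, a cap-binding repressor of translation, rose from 471 and 449 CPM to 834 and 805 CPM (log2 fold change 0.83 ± 0.11, adjusted p = 1.33e-13). EEF2K, the kinase that inhibits elongation factor 2, was at 52.5 and 35.8 CPM with DMSO and 100.4 and 98.5 CPM with cynaroside (log2 fold change 1.19 ± 0.31, adjusted p = 4.31e-04). RPL10, a protein of the large ribosomal subunit with many pseudogene copies, was at 3469.8 and 3351 CPM with DMSO and 2929.9 and 2851 CPM with cynaroside (log2 fold change -0.24 ± 0.05, adjusted p = 1.59e-06). EEF2K missed the threshold without DMSO library 2 (adjusted p = 0.0517). The fall of RPL10 is smaller than the scaling shift given above and changes sign under that scaling. The own row of RPL10 ran the other way, with 1117 and 1541 counts with DMSO and 904 and 2784 with cynaroside (log2 fold change 0.79 in the fit of all deposited rows, adjusted p = 8.22e-08).

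Cell cycle genes showed no uniform direction. In the G1/S and replication list 4 rose and 3 fell of 16 tested (median log2 fold change 0.07). RFC5, a subunit of the clamp loader, rose from 458 and 455 CPM to 747 and 639 CPM (log2 fold change 0.58 ± 0.09, adjusted p = 6.4e-09, row 22.8% opposite). MCM2, a subunit of the replicative helicase, was at 3961 and 4029 CPM with DMSO and 3757 and 3517 CPM with cynaroside (log2 fold change -0.14 ± 0.03, adjusted p = 8.96e-05), a very small difference. Of 6 G2/M and mitosis genes, 1 rose and 3 fell. PLK1, the mitotic polo-like kinase, fell from 1082 and 1049 CPM to 671 and 606 CPM (log2 fold change -0.75 ± 0.08, adjusted p = 1.99e-19). KIF22, a chromosome-binding kinesin, was at 678 and 678 CPM with DMSO and 325 and 411 CPM with cynaroside (log2 fold change -0.85 ± 0.10, adjusted p = 1.82e-16). MCM2 missed the threshold without cynaroside library 2 (adjusted p = 0.0645). The fall of MCM2 is smaller than the scaling shift given above and changes sign under that scaling. DNA repair genes gave 5 rises and no fall among 17 tested (median 0.30), and 29.4% is to be set against the 20.2% of all genes. DESeq2 called no fall in that list, and edgeR gave 1 at an unadjusted p of 0.05. XPC, which recognises damaged DNA in nucleotide excision repair, was at 826 and 863 CPM with DMSO and 1083 and 1181 CPM with cynaroside (log2 fold change 0.43 ± 0.07, adjusted p = 4.77e-10). MDC1, an adaptor at double-strand breaks, rose from 455 and 429 CPM to 671 and 605 CPM (log2 fold change 0.52 ± 0.08, adjusted p = 2.93e-09). RECQL4, a helicase, was at 841 and 818 CPM with DMSO and 1139.6 and 1002 CPM with cynaroside (log2 fold change 0.36 ± 0.07, adjusted p = 1.06e-05).

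The p53 targets were even, with 2 rises and 2 falls among 7 tested. PHLDA1, a pleckstrin-homology protein, fell from 1180.4 and 1244 CPM to 456 and 515 CPM (log2 fold change -1.30 ± 0.08, adjusted p = 2.71e-62). MDM2, the ubiquitin ligase that limits p53, was at 526 and 508 CPM with DMSO and 326 and 411 CPM with cynaroside (log2 fold change -0.46 ± 0.12, adjusted p = 5.09e-04). XPC, already given among the repair genes, was one of the rises. In the apoptosis list 2 rose and 4 fell of 12 tested (median log2 fold change -0.31). BCL2L11, which encodes the pro-apoptotic BH3-only protein BIM, rose from 154 and 173 CPM to 397 and 403 CPM (log2 fold change 1.28 ± 0.15, adjusted p = 3.29e-17, row 5.55% opposite). BCL2L1, which encodes the anti-apoptotic BCL-XL, was at 2139 and 1966 CPM with DMSO and 1314 and 1444 CPM with cynaroside (log2 fold change -0.56 ± 0.06, adjusted p = 7.69e-18). FADD, the adaptor of death receptors, fell from 1977 and 1931 CPM to 1431 and 1459 CPM (log2 fold change -0.43 ± 0.06, adjusted p = 4.32e-12). BOK, a pro-apoptotic relative of BAX, was at 219.8 and 230.2 CPM with DMSO and 129.5 and 130.2 CPM with cynaroside (log2 fold change -0.79 ± 0.19, adjusted p = 1.03e-04). The row read for the pro-apoptotic BCL2L11 was higher, and those read for the pro-apoptotic FADD and BOK were lower. The row of BCL2L11 was MIR4435-2HG, most of which does not lie opposite the gene. BCL2L11's own row did not pass the test (log2 fold change 0.97 in the fit of all deposited rows, adjusted p = 0.160). MDM2 missed the threshold without cynaroside library 1 (adjusted p = 0.0509). The falls of MDM2 and FADD are smaller than the scaling shift given above and change sign under that scaling. With all deposited rows as the scale BCL2L1 (log2 fold change -0.11, adjusted p = 0.246) and BOK (log2 fold change -0.33, adjusted p = 0.127) no longer passed the threshold.

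Regulators of chromatin and RNA were balanced. Of the chromatin genes, 4 rose and 4 fell of 26 tested (median log2 fold change -0.21). H2AZ1, a histone variant placed at promoters, fell from 3264 and 3070.2 CPM to 1694 and 1648 CPM (log2 fold change -0.92 ± 0.05, adjusted p = 3.87e-61, row 13% opposite). HDAC7, a histone deacetylase, was at 674 and 637 CPM with DMSO and 403 and 341 CPM with cynaroside (log2 fold change -0.84 ± 0.12, adjusted p = 5.78e-11). CBX7, a Polycomb protein, was at 296 and 323 CPM with DMSO and 572 and 573 CPM with cynaroside (log2 fold change 0.88 ± 0.13, adjusted p = 2.58e-11). In the RNA processing list 4 rose and 4 fell of 24 tested (median log2 fold change -0.03). HNRNPK, an RNA-binding protein of splicing and translation, fell from 2723 and 2719 CPM to 1669 and 1729 CPM (log2 fold change -0.68 ± 0.06, adjusted p = 5.73e-32). ELAVL1, the mRNA-stabilising protein HuR, was at 46.5 and 49.3 CPM with DMSO and 157 and 139 CPM with cynaroside (log2 fold change 1.61 ± 0.24, adjusted p = 2.82e-10). HDAC7's own row rose, with 77 and 115 counts with DMSO and 105 and 356 with cynaroside (log2 fold change 1.57 in the fit of all deposited rows, adjusted p = 3.04e-07).

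Of the vesicle and Golgi trafficking genes, 5 rose and 7 fell of 28 tested (median log2 fold change -0.09). RAB1B, a small GTPase of transport between ER and Golgi, rose from 10279 and 10514 CPM to 13558 and 13875 CPM (log2 fold change 0.40 ± 0.03, adjusted p = 4.82e-42). TMED2, a cargo receptor of that route, was at 1722 and 1596 CPM with DMSO and 2678 and 2656 CPM with cynaroside (log2 fold change 0.69 ± 0.06, adjusted p = 1.99e-30, row 3.45% opposite). CAVIN3, a coat protein of caveolae, fell from 1556 and 1457 CPM to 793 and 868 CPM (log2 fold change -0.84 ± 0.07, adjusted p = 1.72e-33, row 17.5% opposite). The related CAVIN2 was at 343 and 409.8 CPM with DMSO and 169 and 180.2 CPM with cynaroside (log2 fold change -1.10 ± 0.16, adjusted p = 2.32e-11, row 4.52% opposite). RAB1B and TMED2 of the early secretory route were thus higher and both CAVIN genes lower. Of 43 zinc finger genes named ZNF, 9 rose and 7 fell, and ZNF384 was at 1461 and 1514 CPM with DMSO and 2039 and 2197 CPM with cynaroside (log2 fold change 0.52 ± 0.05, adjusted p = 1.15e-19). Of 23 solute carriers, 4 rose and 8 fell, among them SLC25A24, a mitochondrial carrier, at 616 and 594 CPM with DMSO and 393 and 352 CPM with cynaroside (log2 fold change -0.71 ± 0.12, adjusted p = 3.16e-08). Of 4 circadian clock genes, 2 rose, and PER3, a repressor of the clock, was at 154 and 155 CPM with DMSO and 322 and 282 CPM with cynaroside (log2 fold change 0.95 ± 0.16, adjusted p = 2.38e-08). Of 9 Wnt, Notch and Hedgehog genes, 2 fell, and JAG1, a Notch ligand, was at 31.7 and 48.6 CPM with DMSO and 10.2 and 8.91 CPM with cynaroside (log2 fold change -2.12 ± 0.43, adjusted p = 1.78e-06, row 6.18% opposite). The clock list held no fall and the Wnt, Notch and Hedgehog list no rise, by edgeR, by DESeq2 or at an unadjusted p of 0.05. SLC25A24 (log2 fold change -0.25, adjusted p = 0.0705) no longer passed the threshold when scaled by all deposited rows.

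The 12 largest rises, among genes with a mean of at least 20 CPM, ran from a log2 fold change of 1.82 to 3.92 and came from genes of low level. PDE10A, a phosphodiesterase that degrades cyclic nucleotides, was at 6.93 and 7.43 CPM with DMSO and 94.6 and 123 CPM with cynaroside (log2 fold change 3.92 ± 0.46, adjusted p = 9.85e-21). The zinc finger gene ZNF862 was at 16.8 and 17.6 CPM with DMSO and 111 and 148 CPM with cynaroside (log2 fold change 2.94 ± 0.29, adjusted p = 1e-27). DENND6B, an exchange factor for Rab GTPases, was at 21.8 and 16.9 CPM with DMSO and 147 and 144 CPM with cynaroside (log2 fold change 2.93 ± 0.28, adjusted p = 1.07e-27). The 3 rose by 7.63-fold to 15.1-fold from low control levels. H2BC6, a histone H2B gene with near-identical copies, was at 56.4 and 64.1 CPM with DMSO and 277 and 244 CPM with cynaroside (log2 fold change 2.08 ± 0.18, adjusted p = 3.88e-32). GPR146, an orphan receptor, was at 45.6 and 37.1 CPM with DMSO and 172 and 144 CPM with cynaroside (log2 fold change 1.93 ± 0.23, adjusted p = 1.92e-16).

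The 12 largest falls, under the same limit, ran from -1.76 to -2.70 on the log2 scale and included genes of higher level in this reading. MEST, an imprinted gene of the alpha/beta hydrolase fold, was at 1851 and 2084 CPM with DMSO and 518 and 494 CPM with cynaroside (log2 fold change -1.97 ± 0.08, adjusted p = 1.36e-113, row 22.9% opposite). DSEL, an epimerase-like protein of dermatan sulfate synthesis, was at 1369 and 1389 CPM with DMSO and 424 and 381 CPM with cynaroside (log2 fold change -1.80 ± 0.09, adjusted p = 1.11e-78). ALPK2, an alpha-kinase, was at 818 and 788 CPM with DMSO and 217 and 204 CPM with cynaroside (log2 fold change -1.94 ± 0.12, adjusted p = 2.57e-57). These fell by 3.47-fold to 3.91-fold. HEXIM1, the inhibitor of the elongation factor P-TEFb, was at 404 and 375 CPM with DMSO and 109 and 92.6 CPM with cynaroside (log2 fold change -1.98 ± 0.15, adjusted p = 1.25e-37). MYOCD, which encodes the smooth muscle co-activator myocardin, was at 101 and 99.9 CPM with DMSO and 11.6 and 30.2 CPM with cynaroside (log2 fold change -2.07 ± 0.32, adjusted p = 2.38e-10, row 19.1% opposite). PTPRB, a receptor tyrosine phosphatase, was at 95.1 and 78.3 CPM with DMSO and 13.1 and 19.8 CPM with cynaroside (log2 fold change -2.29 ± 0.37, adjusted p = 3.2e-09, row 16.3% opposite). MYOCD had a log2 fold change of -3.10 without cynaroside library 2. The own row of HEXIM1 ran the other way, with 38 and 46 counts with DMSO and 289 and 688 with cynaroside (log2 fold change 3.92 in the fit of all deposited rows, adjusted p = 9.97e-15).

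**Figure D4:**
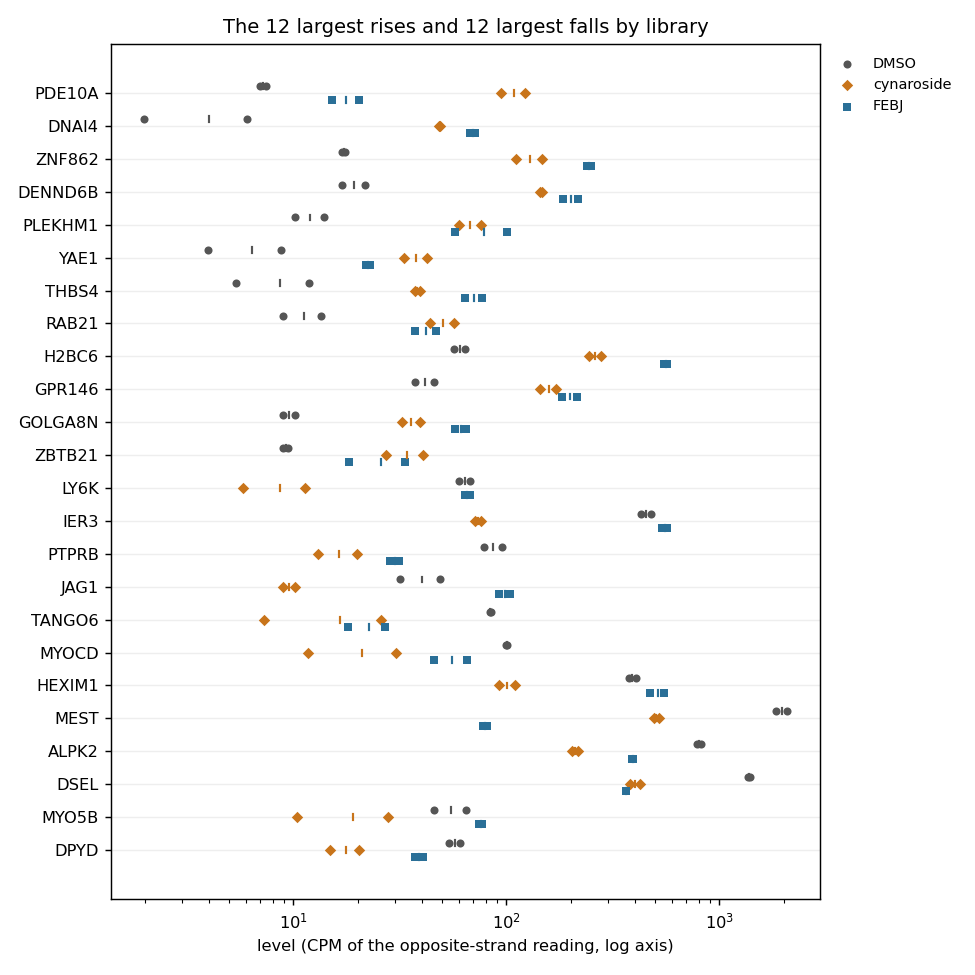
Each row is 1 of the 12 largest rises (upper rows) or 12 largest falls (lower rows), and each symbol 1 library: grey circles DMSO, orange diamonds cynaroside, blue squares FEBJ, with a short bar at the mean of the 2. The horizontal log axis is the level in CPM of the opposite-strand reading. In every row both cynaroside libraries lie on the same side of both DMSO libraries, which the choice of genes required.

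Cynaroside and FEBJ were compared directly at 24 h, with the dose of each not given in the sources used here. Of the 1458 genes, 70.4% differed at an adjusted p of 0.05, 503 of them (34.5% of genes tested) higher and 524 (35.9%) lower with cynaroside. FEBJ is known here by its label only, so its composition is not described. Some matrix genes given above differed by over 4-fold. TIMP2 was at 751 and 655 CPM with FEBJ, against the cynaroside levels given above (log2 3.07 ± 0.05, adjusted p = 0e+00). LOXL2 was at 130.2 and 133 CPM (log2 4.19 ± 0.09, adjusted p = 0e+00) and SPARC at 30.4 and 36.5 CPM (log2 3.62 ± 0.20, adjusted p = 7.94e-90). COL4A2 was at 312 and 333 CPM (log2 2.06 ± 0.08, adjusted p = 6.63e-126). For these 4 the cynaroside libraries were the higher. P4HB differed by less, at 8029 and 8083 CPM with FEBJ (log2 0.86 ± 0.03, adjusted p = 1.92e-173), and THBS3 went the other way, at 288 and 281 CPM (log2 -0.74 ± 0.16, adjusted p = 1.48e-05). TUBB was at 10222 and 10120.1 CPM with FEBJ (log2 2.18 ± 0.02, adjusted p = 0e+00), and MCM2 at 20096 and 20462 CPM (log2 -2.48 ± 0.03, adjusted p = 0e+00). SLC7A11 was listed at 7.61 and 5.41 CPM (log2 5.51 ± 0.40, adjusted p = 1.57e-79), and IER3 at 536 and 569 CPM (log2 -2.89 ± 0.16, adjusted p = 1.51e-78). An adjusted p of 0e+00 is one below the smallest number the software represents. The comparisons with DMSO and with FEBJ share the cynaroside libraries, so no overlap between them is given. PER3 was at 236 and 186 CPM with FEBJ (log2 0.51 ± 0.15, adjusted p = 0.00154) and MEST at 80.8 and 77.8 CPM (log2 2.67 ± 0.13, adjusted p = 1.57e-107).

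Genes with no row across them can be seen only in their own rows, which held 5.79 to 8.13% of the gene-row counts, and there the libraries differed as a whole. Over all 12012 deposited rows, 2917 rose (24.3%) and 2537 fell (21.1%), or 2260 and 3015 with upper-quartile scaling. Falls numbered 1618 without DMSO library 1 and 1543 without DMSO library 2. Of 3911 protein-coding rows with no exon opposite, 338 rose (8.64%) and 1525 fell (39.0%), with a median log2 fold change of -1.40. The own rows of the genes read from opposite rows also had a negative median, -0.84, with 113 rises and 299 falls among 987. Of the 214 risen genes whose own row was tested, 26 own rows rose and 67 fell, and of the 248 fallen genes, 29 rose and 83 fell. Among the genes named above, 28 own rows passed in the same direction, 14 fell where the opposite row rose (AXL, GAPDH, HYOU1, MAFG, MRPS9, MYL12A, P4HB, PLEKHM1, RAB1B, SNAP29, TMED2, TPM4, TPT1 and TUBB), and 7 rose where the opposite row fell (CHKA, HDAC7, HEXIM1, HIF1A, PINK1, RPL10 and UFD1). The difference between the 2 kinds of row was not tested. Low shares of the own row were favoured by the choice of rows. In 174 genes with at least 5000 opposite counts in all, the median own row amounted to 3.63 and 3.19% of its opposite row with DMSO and 0.934 and 0.965% with cynaroside. The part of this lower share in the falls of single own rows was not tested. A fall in an own row is therefore set beside the class median and not beside 0.

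**Figure D5:**
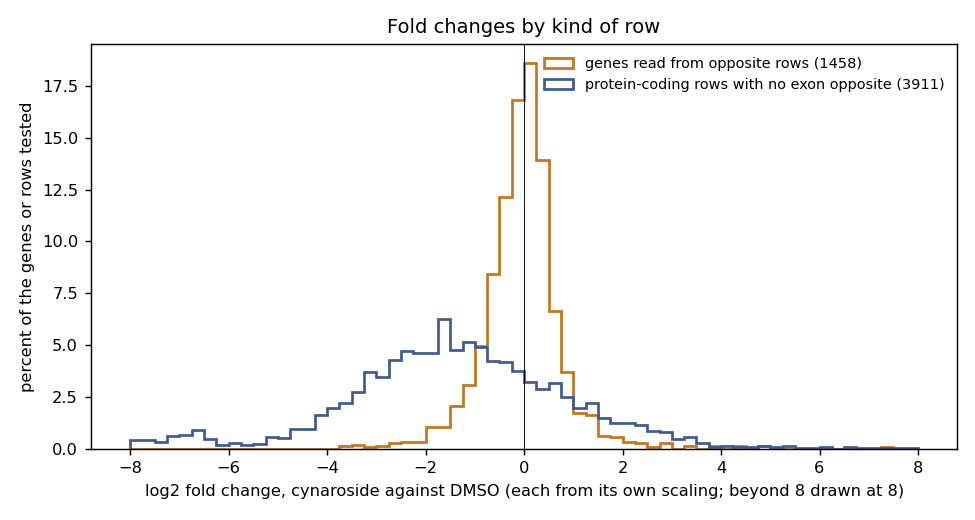
Distribution of log2 fold changes, cynaroside against DMSO, as the percent of genes or rows in each bin. The orange line gives the 1458 genes read from opposite rows and the blue line the 3911 protein-coding rows with no exon opposite, each with its own scaling. The orange line is centred at -0.01 and the blue at -1.40. The heap at the far left of the blue line holds rows near 0 counts with cynaroside, whose fitted values depend on a prior count.

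Read in this way, the collagen COL1A1 had 783 and 1276 counts with DMSO and 58 and 78 with cynaroside (log2 fold change -3.46 ± 0.20, adjusted p = 1.05e-13). FN1, fibronectin, had 629 and 964 counts with DMSO and 72 and 174 with cynaroside (log2 fold change -2.31 ± 0.16, adjusted p = 3.73e-12). COL3A1, another fibrillar collagen, had 23 and 39 counts with DMSO and 0 and 9 with cynaroside (log2 fold change -2.57 ± 1.01, adjusted p = 0.0323). TIMP1, an inhibitor of metalloproteinases, had 44 and 22 counts with DMSO and 2 and 6 with cynaroside (log2 fold change -2.78 ± 0.89, adjusted p = 0.0103). These matrix rows were all lower with cynaroside, at a class median of -1.40. PDGFRB, the receptor for platelet-derived growth factor, had 18 and 28 counts with DMSO and 0 and 2 with cynaroside, a ratio of 18.0 in depth-scaled counts (95% counting interval 4.70 to 153). CCN2, a target of TGF-beta and YAP, had 28 and 28 counts with DMSO and 7 and 20 with cynaroside (log2 fold change -0.74 ± 0.65, adjusted p = 0.354) and did not pass the test. ACTA2's own row had 9 and 28 counts with DMSO and 0 and 7 with cynaroside (log2 fold change -2.13 ± 1.21, adjusted p = 0.132), too few to read against the rise of its opposite row. COL3A1 missed the threshold without cynaroside library 1 (adjusted p = 0.12), without DMSO library 1 (adjusted p = 0.122) and without DMSO library 2 (adjusted p = 0.258). TIMP1 missed it without DMSO library 1 (adjusted p = 0.332), and PDGFRB, with an adjusted p of 0.0127 over all libraries, without DMSO library 1 (adjusted p = 0.106) or 2 (adjusted p = 0.195). The log2 fold change of COL3A1 was -1.92 without cynaroside library 1, and that of TIMP1 -1.86 without DMSO library 1 and -3.37 without DMSO library 2.

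Among protein-coding rows with no exon opposite and a mean of at least 10 CPM, the largest falls included ANXA1, the phospholipid-binding annexin A1, with 107 and 155 counts with DMSO and 0 and 4 with cynaroside (log2 fold change -5.64 ± 0.93, adjusted p = 2.11e-07). ODC1, the first enzyme of polyamine synthesis, had 58 and 92 counts with DMSO and 0 and 0 with cynaroside, at least 39.1-fold lower with the floor set at 3 counts over the 2 libraries. SRSF3, a splicing factor, had 65 and 122 counts with DMSO and 0 and 4 with cynaroside (log2 fold change -5.14 ± 0.88, adjusted p = 1.01e-06). Rises ran against the median of their class. KLHL35, a kelch-like protein, had 0 and 8 counts with DMSO and 63 and 174 with cynaroside (log2 fold change 5.23 ± 0.70, adjusted p = 4.76e-08). ZDHHC17, a palmitoyltransferase, had 8 and 10 counts with DMSO and 59 and 136 with cynaroside (log2 fold change 3.81 ± 0.50, adjusted p = 2.18e-07). MYO15B, a myosin-like gene, had 1 and 9 counts with DMSO and 64 and 143 with cynaroside (log2 fold change 4.77 ± 0.68, adjusted p = 1.34e-07). All 3 had at most 10 counts in either DMSO library. KLHL35 had a log2 fold change of 4.44 without DMSO library 1 and MYO15B of 4.13 without DMSO library 1 and 6.64 without DMSO library 2. Where the library left in a group was at 0 counts the fitted values depend on a prior count: 9.96 for KLHL35 without DMSO library 2, and -9.77 for ANXA1 and -9.25 for SRSF3 without cynaroside library 2.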

How the data were processed

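Total RNA of 6 LX-2 libraries was sequenced. Per the submitters' processing notes, CASAVA 1.7, HISAT2, HTSeq 0.12.4, DESeq2 1.38.0 and the build hg19 were used. The kit, strand setting and annotation are not given in the sources used here. The authors deposited 1 table of raw counts per library, with 62754 gene rows and 5 summary rows, which were left out (no-feature counts were 87.8 to 88.3% of the total in the 4 libraries). Identifiers and exons came from GENCODE release 29 (GRCh38), which held 58261 of the rows. This differs from the build of the counts and may misplace some rows.

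Counts of the opposite rows were summed per gene and fitted with edgeR 4.0.16 in R 4.3.3: filterByExpr, TMM scaling, 3 group means over all 6 libraries, the quasi-likelihood test and Benjamini-Hochberg adjustment over all 1458 genes (threshold 0.05). A value after ± is the standard error of a log2 fold change, with 2 libraries per group. It too rests on a spread estimated with values shared between genes. All deposited rows were fitted the same way, and their log2 values come from that separate scaling. The scripts were tested on simulated data. Intervals and the floor of 3 counts cover counting error only. Alternatives were RLE and upper-quartile scaling, other filters and overlaps, DESeq2 1.42.0, a threshold fold of 1.2, a replicate block, and leaving out each library. Named genes were the 12 largest rises and falls with a mean of at least 20 CPM and no overlap, the 8 highest called genes, up to 3 risen and 3 fallen members per list by p, a fixed panel, and in deposited rows a panel and the 6 largest changes at 10 CPM or more. Not all are printed, and a few members are not reported here. The members and lists were chosen with earlier results of these data known. CDKN1A of the panel had no opposite row. No library stood as a repeat of another: replicates differed beyond sampling noise (mean chi-square 2.84 to 2.95 per gene).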

Additional observations from a re-analysis of the deposited data

How the results depend on the processing

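In the opposite-strand reading, against 295 rises and 325 falls, the counts were 314 and 313 with RLE scaling, 293 and 305 with upper-quartile scaling, 218 and 241 with DESeq2 (all but 1 of these among the calls given), 306 and 319 with only the 4 libraries fitted and 172 and 220 against a fold of 1.2. Rows at least 50% opposite, chosen after seeing the data, gave 132 and 136 from fewer genes. Scaling by all deposited rows gave 740 and 107. Leaving out 1 library gave 223 to 294 rises and 256 to 322 falls. For cynaroside against FEBJ, with 503 and 524, these were 191 and 200 in rows at least 50% opposite and 461 to 506 and 469 to 523 without 1 library. All deposited rows gave 2917 and 2537 calls of 12012, 2426 and 2898 with RLE, 2260 and 3015 with upper-quartile scaling, 2311 and 3052 with only 4 libraries and 1855 and 2140 with a filter of 10 CPM, and 2025 to 3030 rises and 1543 to 2649 falls without 1 library. The cause of these moves was not tested. With the replicate number as a replicate block the counts were 286 and 317 in the reading, 2800 and 2310 in deposited rows and 501 and 517 against FEBJ. Same-numbered DMSO and cynaroside libraries did not deviate together (correlation of deviations across genes 0.0016 in the reading and -0.022 in deposited rows). For same-numbered cynaroside and FEBJ libraries the correlation was 0.11 in the reading and -0.015 in deposited rows. The numbers are treated as names only. Under scaling by all deposited rows the log2 fold change of 12 named genes called as falls turned positive. These were ARHGDIA (0.23), CRIM1 (0.15), FADD (0.023), LOXL2 (0.26), MCM2 (0.31) and MDM2 (0.0026). The rest of them were NQO1 (0.12), RPL10 (0.21), TUBA1B (0.19), UFD1 (0.13), VIM (0.11) and YAP1 (0.25). Over the 121 genes named and their alternatives, 2159 values were compared. Of these, 61 lost the call, 5 gained it and 12 changed sign in a gene called in either fit. The other 2081 stayed on the same side of the threshold. A change of sign in a gene called in neither fit is counted among the 2081. With 2 libraries a group, 706396 to 2065919 counts per library limit genes of low level.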
